A study of Mus musculus with 7 samples.

Results

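The somatostatin receptor genes Sstr1, Sstr2, Sstr3, Sstr4 and Sstr5 were examined for open chromatin in sorted mouse islet cells. The peaks described are those of 7 ATAC-Seq libraries, 2 of alpha, 3 of beta and 2 of delta cells, that overlapped 1 of the 5 gene bodies or the 20 kb on either side of it (GENCODE vM21 on GRCm38). Of 1182252 distinct peaks in the 7 lists, 154 met this rule, 24 at Sstr1, 30 at Sstr2, 36 at Sstr3, 33 at Sstr4 and 31 at Sstr5. In ATAC-Seq a transposase inserts sequencing adapters into accessible DNA, and a peak is a stretch with more cuts than its surroundings. The study asked how accessibility differs between the 3 endocrine cell types of the islet.

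All mice carried mIns1-H2b-mCherry, a nuclear red reporter driven by an Ins1 promoter, and Rosa-LSL-YFP, a yellow reporter switched on by Cre. They carried Gcg-Cre or Sst-Cre in addition, so that YFP marked cells in which the glucagon or the somatostatin gene had driven Cre. This includes any that later changed identity, but the paper left cells positive for both reporters out of every sample. Animals of 1 sex were pooled for a sample, and a median of 20000 cells was sorted, with fewer for delta 2. By the study's sample table alpha 1, beta 2 and delta 1 were female pools and alpha 2, beta 1, beta 3 and delta 2 male pools. The spread between replicates of alpha or of delta cells thus cannot be told apart from sex. No strain, age or treatment beyond healthy mice was given in the labels. Beta cells were sorted from the same animals as alpha or delta cells, so beta libraries may share mice with either. Alpha cells came from Gcg-Cre and delta cells from Sst-Cre mice, so alpha and delta libraries do not share mice.

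Somatostatin is the hormone of delta cells and restrains the secretion of both insulin and glucagon. Its receptors are G protein-coupled receptors that act through Gi/o proteins, which lower cyclic AMP, open GIRK potassium channels and limit calcium entry. The family falls into a group that binds octreotide-like analogs with high affinity, Sstr2, Sstr3 and Sstr5, and a group that binds them poorly, Sstr1 and Sstr4. In mouse islets Sstr2 is best known from alpha cells, and Sstr3 from the primary cilium of beta cells.

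MACS2 gave each peak a fold enrichment over the local background, a -log10 p and a -log10 q, each from the reads of its own library. A peak with a -log10 q of at least 2 is called a strict peak here. To set lists of different length side by side, the percentile of a peak by -log10 p within its own list was used, with 0 where a list held no peak. The start-site peak of a gene is the strongest one that overlapped the 1 kb to either side of its 5' end. Lists hold no reads outside peaks, so they give no limit of detection for an absent peak.

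The lists held between 75860 (delta 2) and 158066 (delta 1) distinct peaks, except that of beta 1 with 518503. In beta 1 only 5.0% of the peaks were strict, against 29.8% to 54.9% in the other lists, and 73.0% of them shared 1 value, a -log10 p of 2.26 with a -log10 q of 0.08. The exact permutation p-values of the receptors, the merged regions and the selective regions are therefore also given without beta 1. Counts of genes with start-site peaks and the nearest genes include it. The file name of the beta 1 list carries the name of alpha cells, and those of beta 2 and beta 3 carry that of delta cells. What these names stand for is not given in the labels. Groups follow the labels. Among marker genes, start-site peaks were held in at least 2 replicates by 5 of 5 alpha markers in alpha cells, 4 of 7 beta markers in beta cells and 4 of 4 delta markers in delta cells, beside 56.8%, 56.1% and 54.1% of all genes. They were not particular to these cells, as 4 of 5 alpha markers and 4 of 7 beta markers had one in delta cells, and 3 of 7 beta markers and 3 of 4 delta markers in alpha cells, while 2 of 5 alpha and 0 of 4 delta markers had one in beta cells. Gcg had none in any beta library, Sst had one in both delta libraries and beta 1, and Ins2 had one only in beta 3, while Slc2a2 and G6pc2 had none in any list. For markers of other cells, at most 1 of 5 acinar, 0 of 4 endothelial, 0 of 4 immune and 1 of 3 duct genes had start-site peaks in at least 2 replicates of any 1 cell type. Alpha 1, alpha 2 and beta 1 were sequenced on lane 6 and the other 4 libraries on lane 7 by the names of the files. Alpha against delta thus cannot be told apart from the lane or from the Cre line. Without beta 1, alpha against beta cannot be told apart from the lane either, as beta 2 and beta 3 were on lane 7.

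The CRE, a palindrome bound by CREB family proteins, is shown first because it lies at the start of Sstr2. Of the 5 receptors, Sstr2 had the strongest start-site peaks in alpha cells. The sequence is that of RefSeq upstream of its start on GRCm38, plus strand, chr11:113619077-113619326, with the CRE in capitals.
Sstr2 promoter: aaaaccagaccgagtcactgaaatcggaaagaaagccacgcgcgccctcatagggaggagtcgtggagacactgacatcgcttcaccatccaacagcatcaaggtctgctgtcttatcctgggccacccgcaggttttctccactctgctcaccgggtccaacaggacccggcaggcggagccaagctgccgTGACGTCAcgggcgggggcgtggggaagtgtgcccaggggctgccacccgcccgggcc
The next stretches, read from GRCm38.p6 on the plus strand, are a pair in which peaks of several libraries overlapped, 1 called in alpha cells alone and 1 shared by the cell types. Capitals mark the span between the outermost summits of those peaks. The stretch in an intron of Slc39a11 downstream of Sstr2, chr11:113631352-113631614, held a peak in both alpha libraries and in no other.
Sstr2 downstream stretch: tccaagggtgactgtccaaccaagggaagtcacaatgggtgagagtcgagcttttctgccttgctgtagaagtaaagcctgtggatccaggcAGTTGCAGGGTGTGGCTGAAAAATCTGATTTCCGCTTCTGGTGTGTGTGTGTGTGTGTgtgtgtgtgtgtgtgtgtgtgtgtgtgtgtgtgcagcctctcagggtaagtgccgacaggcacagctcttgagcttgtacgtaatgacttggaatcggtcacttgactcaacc
The other one, chr2:148409310-148409508, lies before the start of Thbd, the neighbour of Sstr4, and held a peak in 6 of 7 libraries.
Sstr4 locus, before Thbd: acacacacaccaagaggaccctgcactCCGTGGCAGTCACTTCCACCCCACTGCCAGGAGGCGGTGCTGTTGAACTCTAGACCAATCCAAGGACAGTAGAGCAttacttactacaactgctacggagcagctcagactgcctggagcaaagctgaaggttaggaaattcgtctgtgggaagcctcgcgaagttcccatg

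**Figure D1:**
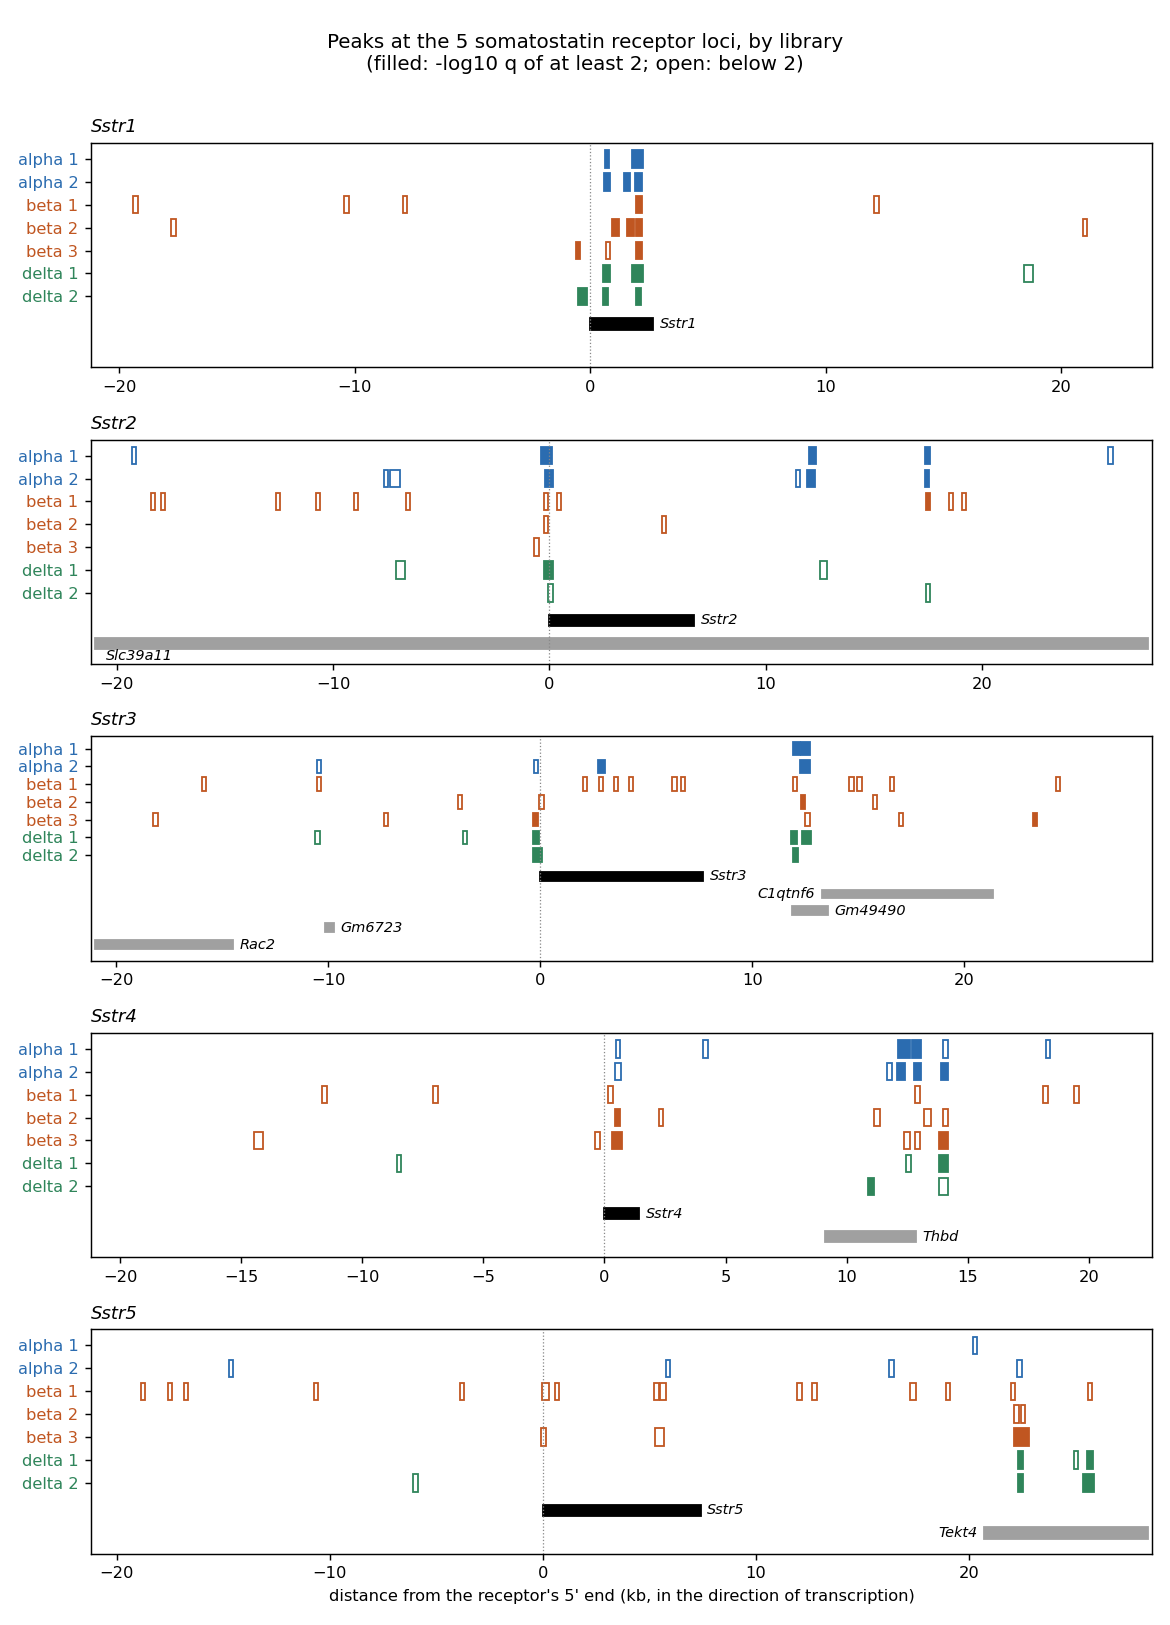
Peaks at the 5 receptor loci by library. The x axis gives the distance from the 5' end of the receptor in kb, in the direction of transcription, each box is 1 peak drawn from its start to its end, filled boxes are strict peaks (-log10 q of at least 2), and black and grey bars are the receptor and its neighbours. The filled boxes gather at a few positions, whereas most open boxes of beta 1 stand alone.

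The share of strict peaks at the loci was above that of the list in the alpha and delta libraries and about equal to it in beta 3. In beta 1 and beta 2 it was below. These shares rest on few peaks and were not tested. Alpha 1 held 16 peaks at the loci, alpha 2 held 22, beta 1 held 50, beta 2 held 18, beta 3 held 19, delta 1 held 17 and delta 2 held 12. Strict peaks numbered 9 and 11 in the alpha, 2, 5 and 7 in the beta and 9 and 8 in the delta libraries, 51 in all. Beta 1 thus had the most peaks and the fewest strict ones, and 30 of its 50 peaks had the value that its list repeats most often. Strict peaks made up 56.2% and 50.0% of the peaks at the loci in alpha 1 and alpha 2, against 39.7% and 43.8% of the lists, 52.9% and 66.7% in delta 1 and delta 2, against 29.8% and 54.9%, and 36.8% in beta 3 against 36.6% of that list. The shares in beta 1 and beta 2, 4.0% and 27.8%, were below those of the lists, 5.0% and 35.2%.

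Each locus was set beside the median protein-coding gene with the same flanks by its peaks per 10 kb. Sstr1, Sstr2 and Sstr5 were above the median gene in 5 of the 7 libraries, and Sstr3 and Sstr4 in 6. For strict peaks Sstr1 was above it in all 7 libraries, Sstr3 in 6, Sstr4 in 5, Sstr2 in 3 and Sstr5 in 2. Sstr1 had 16 strict peaks, Sstr3 had 12, Sstr4 had 10, Sstr2 had 8 and Sstr5 had 5.

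**Figure D2:**
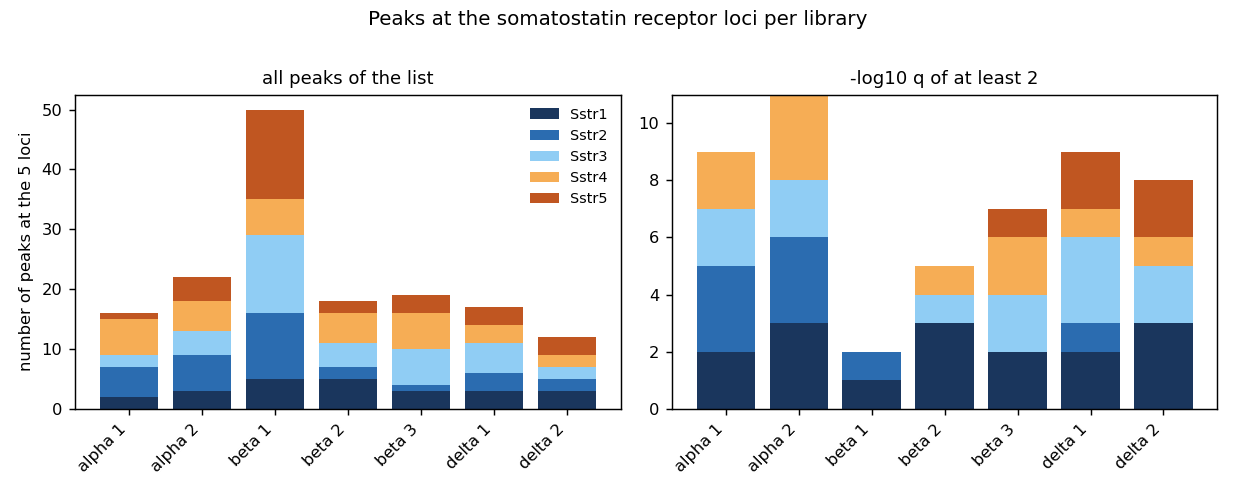
Number of peaks at the 5 loci in each library, stacked by receptor, for the full lists (left) and for strict peaks (right). Beta 1 has the tallest bar on the left, 50 peaks, and the shortest on the right, 2 peaks.

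Start-site peaks were then compared across cell types. A start-site peak was present in 25 of the 35 combinations of receptor and library, and 14 of these were strict. In at least 2 replicates it was held by 3 of the 5 receptors in alpha cells (56.8% of the 21938 protein-coding genes), by 5 in beta cells (56.1%) and by 3 in delta cells (54.1%). Strict start-site peaks were held in at least 2 replicates by 2 receptors in each cell type, beside 51.5% of all genes in alpha cells, 41.4% in beta cells and 48.4% in delta cells. In every library each receptor with a start-site peak ranked below the median start-site peak of all genes, which lay between the percentiles 85.1 (delta 2) and 96.1 (beta 1). Of the 25 peaks 0 ranked above that median.

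For each receptor the spread between the 3 cell types was tested against all 210 ways of assigning the 7 libraries to groups of 2, 3 and 2, an exact permutation test without direction whose smallest p is 0.00952. With the p-values of all 21938 genes adjusted by Benjamini-Hochberg, the adjusted p was 1.0 for each receptor and no gene of any kind fell below 1.0. Unadjusted, 1 receptor, Sstr4, was under 0.05, beside 2.19% of all genes. Pairs of cell types cannot reach 0.05 on their own, since the smallest two-sided exact p is 0.1 for 2 against 3 libraries and 0.333 for 2 against 2.

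**Figure D3:**
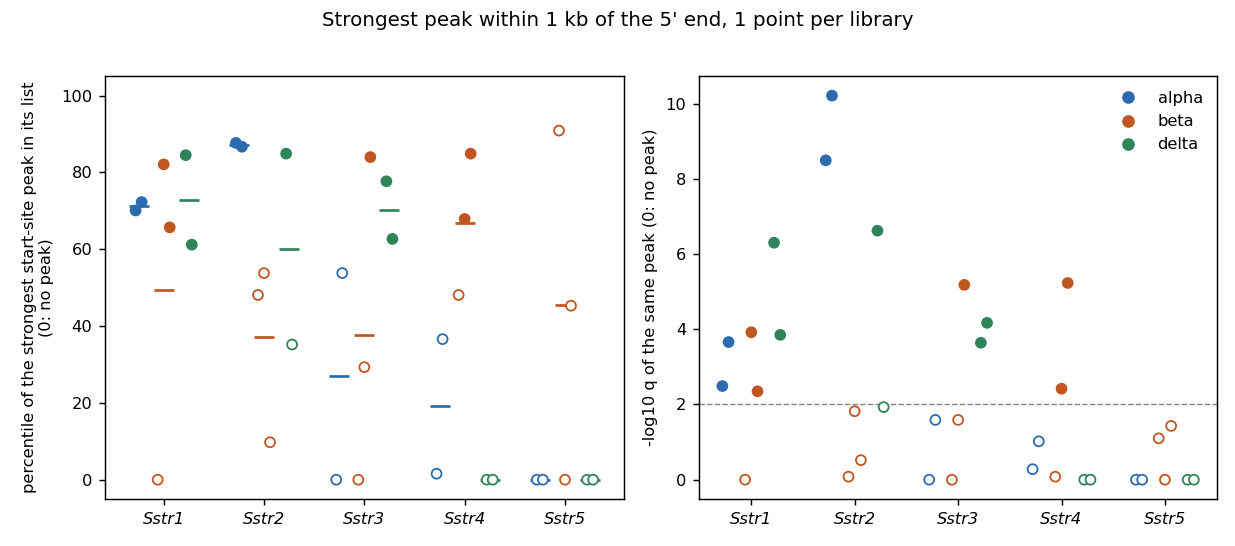
Start-site peak of each receptor, 1 point per library, filled where it is strict. The left panel gives its percentile by -log10 p within the list (0 where there was no peak, horizontal lines are means) and the right panel its -log10 q with a dashed line at 2. Sstr2 has its highest points in alpha 1, alpha 2 and delta 1, Sstr4 has none in delta cells, and the points of Sstr5 above 0 are beta 1 and beta 3.

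Sstr2 (ENSMUSG00000047904.6, chr11:113619342-113626028, plus strand) lies within Slc39a11, a zinc transporter gene, and was the 1 receptor with a start-site peak in all 7 libraries, as 41.5% of all genes had. Its start-site peak had a -log10 q of 8.49 in alpha 1 and 10.21 in alpha 2, of 0.08, 1.82 and 0.52 in beta 1, beta 2 and beta 3, and of 6.62 in delta 1 and 1.93 in delta 2. The fold enrichment was 7.22 and 8.23 in the alpha, 1.8, 3.39 and 2.41 in the beta and 6.43 and 3.36 in the delta libraries. Both alpha libraries were thus above every other library, the 2 delta libraries were apart from each other, and delta 2 was next to beta 2. The libraries with a strict Sstr2 start-site peak, alpha 1, alpha 2 and delta 1, were those with the most strict peaks in their lists, 52057, 49047 and 47042 against 25903 to 41683 in the other 4. By the study's sample table they also had the most uniquely mapped reads. The part of depth in this difference was not tested.

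In percentiles, the Sstr2 start-site peak stood at 87.2 ± 0.717 (SD, n = 2) in alpha cells, at 37.2 ± 24 (SD, n = 3) in beta cells and at 60.0 ± 35.1 (SD, n = 2) in delta cells. These differences were not larger than the spread between replicates by the exact permutation test on percentiles (p = 0.219, and p = 0.267 without beta 1). On fold enrichment in place of percentiles the unadjusted exact p was 0.0476. Strict in both alpha libraries and in no beta library, Sstr2 shared this pattern with 4.2% of all genes. Summits lay at -38 and 39 bp from the 5' end in alpha 1 and alpha 2 and at -23 and 51 bp in delta 1 and delta 2, but at -149, -166 and -615 bp in beta 1, beta 2 and beta 3. Beta 1 held a second peak of the same value at 447 bp. The peak of beta 3 did not overlap those of the other libraries.

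The Sstr2 promoter shown above holds 1 CRE, TGACGTCA, at -73 to -66 bp from the GENCODE 5' end. It lies wholly inside the start-site peaks of alpha 1, alpha 2, delta 1 and beta 1 (the upstream one of 2), while the peak of beta 2 ends within it and those of beta 3 and delta 2 do not reach it. Among 32851 RefSeq promoters of 300 bp, 1.79% hold this motif on either strand. Sstr2 also has 2 GC boxes, GGGCGG, the site of Sp1 family factors, which 35.7% of promoters hold. The GC content of its 300 bp promoter, which runs past the stretch shown (63.6%), was 66.3%. The observed over expected CpG ratio of the 300 bp was 0.819, beside medians of 52.7% and 0.384 over all promoters.

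Downstream of Sstr2, within introns of Slc39a11, 2 further regions were called in both alpha libraries. The first, centred at 12114 bp from the 5' end, had a strict peak in alpha 1 (-log10 q 2.16, fold enrichment 3.75) and alpha 2 (4.24 and 5.07) and none in the 5 beta and delta libraries. Its capitals run into a TG repeat, and 25.5% of the stretch shown is soft-masked in the reference, the mark of repeats and simple sequence. The part of the repeat in these calls was not tested. Close by, delta 1 held a separate peak, centred at 12669 bp, that was just below strict (-log10 q 1.91, fold enrichment 3.58). The second, centred at 17486 bp, had a -log10 q of 39.06 in alpha 1, 4.34 in alpha 2, 2.44 in beta 1 and 1.93 in delta 2, with fold enrichments of 19.0, 5.13, 3.61 and 3.36. Alpha 1 was thus far above the other 3 libraries in a region that lies nearer to the start of Cog1 than to that of Sstr2.

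Sstr3 (ENSMUSG00000044933.3, chr15:78537008-78544685, minus strand), the receptor of the primary cilium, had start-site peaks in 5 libraries. The -log10 q was 1.59 in alpha 2, 1.59 in beta 2, 5.18 in beta 3, 3.64 in delta 1 and 4.17 in delta 2, and alpha 1 and beta 1 had no peak. Strict peaks were thus present in both delta libraries and in 1 of 3 beta libraries, and each group other than delta held a library with none. The percentile was 26.9 ± 38.1 (SD, n = 2) in alpha cells, 37.8 ± 42.7 (SD, n = 3) in beta cells and 70.2 ± 10.6 (SD, n = 2) in delta cells, which did not differ beyond the replicate spread (exact permutation p = 0.514, and 0.467 without beta 1). Summits lay between -13 bp (beta 2) and -265 bp (beta 3) from the 5' end.

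An intragenic region of Sstr3 at 2881 bp held a strict peak in alpha 2 (-log10 q 3.66) and otherwise only a peak of beta 1 at 0.08. The most shared region of this locus, at 12293 bp downstream, lies in an exon of Gm49490 and closest to the start of C1qtnf6, a gene for a secreted C1q and TNF related protein. It was called in all 7 libraries with a highest -log10 q of 8.42 in alpha 2, 7.45 in alpha 1, 7.21 in delta 1, 3.66 in delta 2, 3.25 in beta 2, 0.98 in beta 3 and 0.94 in beta 1. Both alpha libraries and delta 1 were above the other 4. These were also the libraries with the most strict peaks in their lists, and the part of depth was not tested. RefSeq gives 2 promoters for Sstr3, and 1 of them holds CAGATGG, an E-box of the kind bound by NEUROD1, as 5.3% of promoters do. The GC content of the pair was 58.7% and 57.3%, with CpG ratios of 0.431 and 0.0422.

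Sstr5 (ENSMUSG00000050824.12, chr17:25489875-25497288, minus strand) had no strict peak in its gene body or at its start. Start-site peaks were present in beta 1 (-log10 q 1.1, fold enrichment 2.7) and beta 3 (1.43 and 3.21), and neither beta 2 nor any alpha or delta library had one. A start-site peak in at least 2 beta replicates and in no alpha or delta library was found for 1.7% of all genes. The percentile was 45.4 ± 45.4 (SD, n = 3) in beta cells and 0 elsewhere, with an exact permutation p of 0.238. Without beta 1 the pattern rested on beta 3 alone, with an exact permutation p of 1.0.

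Its coding exon carried weak peaks of alpha 2 (-log10 q 1.02), beta 1 (1.1) and beta 3 (0.52). The strict peaks at this locus all lay in Tekt4, a gene for a filament protein of sperm flagella and cilia. A region at the start of Tekt4, 25610 bp downstream of the 5' end of Sstr5, had a -log10 q of 4.57 in delta 1 and 5.72 in delta 2, 0.08 in beta 1 and no peak in any alpha library. The next one, at 22384 bp, was called in 6 libraries, with values of 1.72 in alpha 2, 0.08, 1.82 and 3.76 in beta 1, beta 2 and beta 3, and 2.75 and 4.94 in delta 1 and delta 2. Strict peaks of both delta libraries were thus found in each of the 2 regions, beside 1 of a beta library in the second.

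Sstr1 (ENSMUSG00000035431.4, chr12:58211772-58214444, plus strand) has no neighbour within 20 kb, and its most significant peak was not at its start but around the end of its coding sequence. This region, centred at 1847 bp, was called in all 7 libraries. Its highest -log10 q was 12.83 and 16.52 in the alpha, 5.26, 3.92 and 9.0 in the beta and 24.92 and 4.68 in the delta libraries. All 7 were strict, and 5.26 was the highest value of any peak of beta 1 at the loci. The groups overlapped, with delta cells holding both the highest value and 1 of the 3 lowest. Over all regions of at least 2 libraries, 13.3% were called in all 7.

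At its start Sstr1 had peaks in 6 libraries, all strict. The -log10 q was 2.49 and 3.66 in the alpha libraries, 3.92 in beta 2, 2.35 in beta 3, and 6.3 and 3.85 in the delta libraries, and beta 1 had none. These peaks lay on either side of the start. In both alpha libraries and delta 1 the summit was 705 to 726 bp after the 5' end, in beta 2 it was at 1079 bp, and in beta 3 and delta 2 the stronger of 2 peaks was upstream, at -488 and -391 bp. The percentile was 71.2 ± 1.55 (SD, n = 2) in alpha cells, 49.3 ± 43.4 (SD, n = 3) in beta cells and 72.8 ± 16.5 (SD, n = 2) in delta cells (exact permutation p = 0.848, and 1.0 without beta 1). Sstr1 was thus the receptor with a strict start-site peak in at least 2 replicates of every cell type. None of its peaks covered the 5' end itself, and the strict start-site peaks of beta 2 and beta 3 did not overlap each other.

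Sstr4 (ENSMUSG00000037014.4, chr2:148395344-148396767, plus strand), a gene of 1 exon, had start-site peaks in both alpha and all 3 beta libraries and in no delta library. The -log10 q was 0.28 in alpha 1, 1.02 in alpha 2, 0.08 in beta 1, 2.42 in beta 2 and 5.23 in beta 3. The fold enrichment was 2.21 and 2.93 in the alpha and 1.8, 3.97 and 5.8 in the beta libraries. Beta 2 and beta 3 were thus the 2 libraries with a strict peak.

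In percentiles Sstr4 stood at 19.1 ± 24.8 (SD, n = 2) in alpha cells, 67.0 ± 18.4 (SD, n = 3) in beta cells and 0 in both delta libraries. The groups did not overlap in percentiles, although beta 1 lay below both alpha libraries in fold enrichment, and 6 of 210 assignments gave a spread as large (exact permutation p = 0.0286, adjusted p = 1.0 over all genes). Beta 1 stood at 48.1, the tied percentile of the value that 73.0% of its list shares, above alpha 2 at 36.6 although its -log10 q was lower. With strict peaks alone, and with 50000 peaks per list, the exact permutation p was 0.238. Without beta 1 it was 0.0667, the smallest that 90 assignments to groups of 2, 2 and 2 allow. A start-site peak in both alpha and at least 2 beta libraries but in no delta library was found for 0.36% of all genes. In 4 libraries the summits lay within 25 bp of each other in the coding exon, between 548 and 573 bp after the 5' end. The promoter of Sstr4 has a GC content of 68.7% and a CpG ratio of 1.0.

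Farther on at this locus, 3 regions near the start of Thbd, the gene of the anticoagulant receptor thrombomodulin, were called in 4 to 6 libraries. The region at 12373 bp had a -log10 q of 2.6 and 4.88 in the alpha libraries, 0.86 in beta 3 and 0.93 in delta 1. The region at 12883 bp had 3.47 and 2.39 in the alpha libraries, 1.32 in beta 1 and 1.5 in beta 3, and no peak in delta cells. Strict peaks were thus seen in alpha cells alone in both regions. By contrast, the region at 13995 bp, shown above, had 1.49 and 7.48 in the alpha libraries, 1.73 and 5.28 in beta 2 and beta 3, and 19.53 and 1.81 in the delta libraries, with none in beta 1. Its highest value was in delta 1, and its 3 lowest were in 1 library of each cell type.

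Peaks of the 7 lists at the loci merged into 88 regions. A peak of at least 2 libraries was present in 20 of them, or in 17 without beta 1. Of the other 68 regions 36 were seen in beta 1 alone. In the whole series 16.0% of 834695 merged regions were in at least 2 libraries, and 59.3% of those in 1 library were of beta 1. Of the 20 recurrent regions 14 were strict in at least 2 libraries, 1 in 1 library and 5 in none. The receptor had the nearest start for 11 of them, and 15 lay within 3 kb of an annotated start, 3 in introns, 1 in an exon and 1 between genes.

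A region was called selective where a cell type had a peak in at least 2 replicates and the other in none. Alpha over beta held 1 of the 20 regions (5.41% of all 133698 recurrent regions), the alpha stretch downstream of Sstr2. Beta over alpha held 1 (14.8%), the Sstr5 start. Alpha over delta held 3 (5.38%), the Sstr2 downstream stretch, the Sstr4 coding exon and the region at the Thbd start. Delta over alpha held 1 (5.13%), the Tekt4 start. Beta over delta held 4 (13.2%), the Sstr4 coding exon, the Thbd start, the Sstr5 start and the Sstr5 coding exon, whereas delta over beta held 0 (4.85%). Without beta 1 these counts were 2, 0, 3, 1, 1 and 1 in the same order. The shares of all recurrent regions above include beta 1 and were not computed without it, so the latter counts have no background. No test was made on any of these counts.

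**Figure D4:**
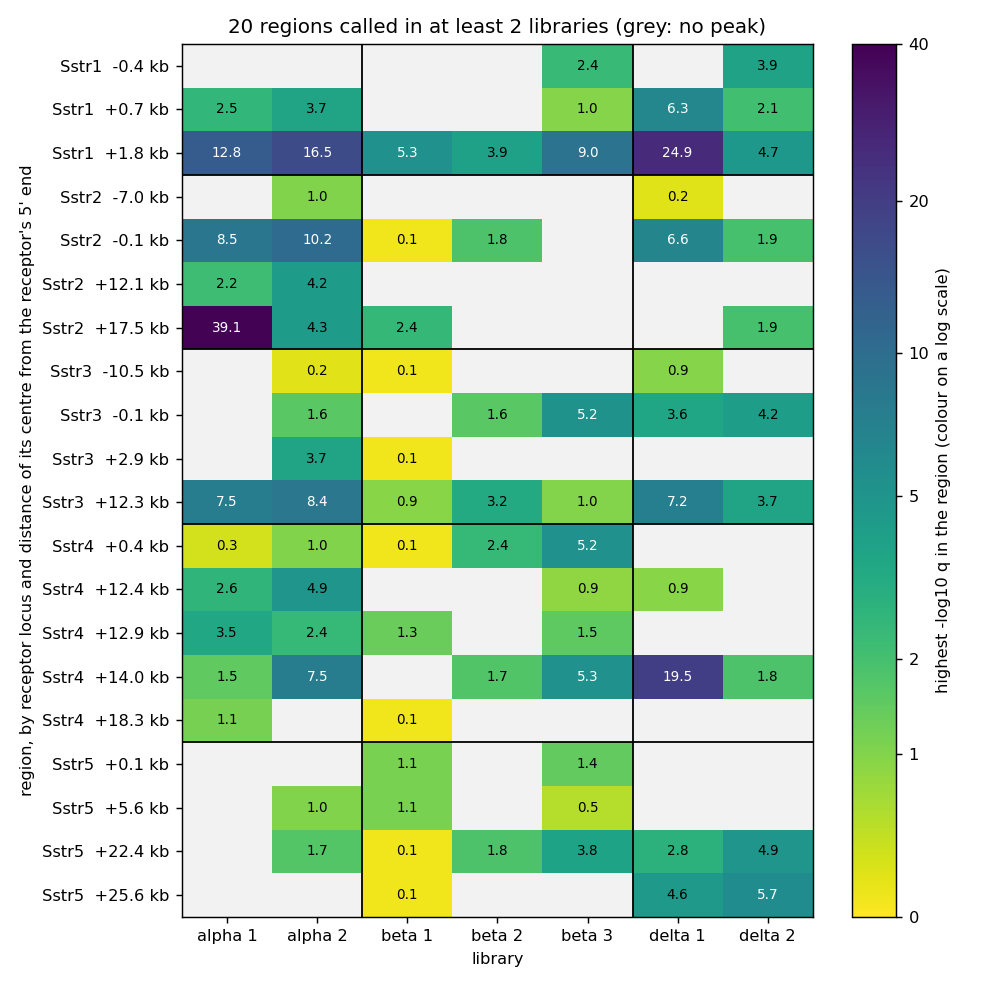
The 20 recurrent regions at the receptor loci. Rows are regions by receptor locus and distance of their centre from its 5' end, columns are libraries, and each cell prints the highest -log10 q of a peak in the region, with colour on a log scale and grey for no peak. The row of Sstr1 at +1.8 kb is filled across all 7 libraries with values from 3.92 to 24.92, and the row of Sstr2 at +12.1 kb is filled in alpha 1 and alpha 2 alone.

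Most genes through which the receptors act had peaks at their starts in all 3 cell types. Fewer of these genes had strict ones in beta cells, which also held for all genes. Of 25 genes of somatostatin signalling, 20 had a start-site peak in at least 2 alpha, 21 in at least 2 beta and 21 in at least 2 delta replicates, and 14 had one in all 7 libraries. Among all genes these shares were 56.8%, 56.1%, 54.1% and 41.5%. Strict start-site peaks in at least 2 replicates were held by 17, 11 and 17 of the 25 in alpha, beta and delta cells. The shares of all genes were 51.5%, 41.4% and 48.4%. None of the 25 had an unadjusted exact permutation p under 0.05. The 5 Gi/o subunit genes, Gnai1, Gnai2, Gnai3, Gnao1 and Gnaz, had a start-site peak in every library, with percentiles for Gnaz between 92.3 and 99.7. Among GIRK channel genes Kcnj3 had one in all 7 libraries, Kcnj6 in 6, Kcnj5 in 3 and Kcnj9 in none. Of the 8 adenylyl cyclase genes 7, 8 and 7 had one in at least 2 replicates of alpha, beta and delta cells. Strict ones were held in at least 2 replicates by 5, 2 and 6 of them. Both phosphatases, Ptpn6 and Ptpn11, and all 4 arrestin and receptor kinase genes had a start-site peak in each cell type.

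Of the 2 ligand genes, Sst had a start-site peak in delta 1 and delta 2 at percentiles 17.1 and 14.4 and in beta 1 at 95.5, and Cort, for the related peptide cortistatin, had one in beta 1 alone. The highest percentile for Sst was thus in beta 1 and not in a delta library. In 17 other receptors that couple to Gi, set against the same shares of all genes (56.8%, 56.1% and 54.1%), 8 had a start-site peak in at least 2 alpha, 9 in at least 2 beta and 4 in at least 2 delta replicates, and 4 had none in any library, which held for 17.3% of all genes. Npy2r and Npy4r had unadjusted exact permutation p-values of 0.00952 and 0.019, with adjusted values of 1.0. The median gene of the annotation had a start-site peak in 6 libraries, the median of the signalling genes in 7, of the somatostatin receptors in 5 and of the other Gi receptors in 3.

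The protein-coding genes whose 7 start-site percentiles were nearest to those of each receptor were found by Euclidean distance over the 7 libraries. For Sstr1 these were Pdgfrl (9.59), Brinp3 (13.5) and Ppp1r37 (14.9), and for Sstr2 they were Slc35c2 (12.0), Ppt2 (18.6) and Slc27a6 (20.9). Those of Sstr3 were Trpc5 (21.1), Bloc1s2 (31.1) and Ccnd3 (41.7), and those of Sstr4 were Wnt16 (43.0), Syt15 (46.5) and Ada (48.5), so Sstr4 had the most distant neighbours of these 4. Cyp2ab1, Tnfrsf8 and Best1 had the same 7 percentiles as Sstr5 (distance 0.0), 90.9 in beta 1, 45.3 in beta 3 and 0 elsewhere. Neither Sstr5 peak was strict, and that of beta 3 has the commonest value of its list, shared by 31.9% of its peaks. Ties in distance were broken by gene ID, so other genes may match as closely. The percentiles 48.1 and 53.8, which Sstr2 shares with its neighbours in beta 1 and beta 2, are also the commonest values of those lists.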

How the data were processed

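Peak lists of 7 ATAC-Seq libraries (single-end reads of 50 bp) were used, with the cell type and replicate taken from the labels. Before deposit the authors had trimmed the reads (Trimmomatic), aligned them to a GRCm38 index lacking mitochondrial DNA (Bowtie 2), marked duplicates (Picard), dropped blacklisted regions and run MACS2 on every library by itself. Versions and the MACS2 threshold are not given in the sources used here. The lowest -log10 p in every list was 2.01. The deposited -log10 p-values and -log10 q-values come from the reads of 1 library, the deposited fold enrichment is the summit signal as a ratio to the local background, and the deposited score is 10 times the -log10 p and was not analysed further.

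Rows that repeat an interval were counted once, peaks overlapping by at least 1 bp were merged, and genes were those of GENCODE vM21. Lists hold no reads per region, so the study's edgeR test through DiffBind was not repeated, and exact permutation tests over libraries took its place, adjusted by Benjamini-Hochberg over 21938 genes. Their p-values measure the spread between pools of mice. Named genes were the 5 receptors, the 3 nearest genes to each, fixed lists and genes at the loci. The members and lists were chosen with earlier results of these data known. Promoters came from RefSeq (GRCm38), where 3 of 5 receptors matched, Sstr2, Sstr3 and Sstr4. Besides the motifs named above, those of homeodomain factors (TAATTA), of forkhead factors (TGTTTAC), of the basal promoter (TATAAA), of erythroid and endoderm zinc finger factors (AGATAA), of HNF1 and of CTCF were searched on both strands, and none of these 6 was found in the 4 promoters of the receptors. Replicate numbers were not taken to pair the samples. Sequences of some regions are not reported here. Alternatives were strict peaks, 50000 peaks per list, other flanks, windows, starts, overlap and rules, fold enrichment, permutation within lane or replicate number, and each library left out. Python 3.11.15 with numpy 2.4.6, pandas 2.3.3 and matplotlib 3.10.9 was used, and the steps were tested on simulated lists.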

Additional observations from a re-analysis of the deposited data

How the results depend on the processing

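Of the values under alternatives, 109 kept their side of the threshold or stayed within 1.5 times, 33 counts moved, 11 exact permutation p-values for Sstr4 no longer passed 0.05 and 1 for Sstr2 newly passed. Of the 11, 5 came from designs whose smallest p is above 0.05 (0.0667 without a beta library, 0.0556 within lane or replicate number) and say nothing of stability. The exact permutation p of Sstr4 was 0.238 with strict peaks and with 50000 peaks per list, 0.105 with fold enrichment, 0.111 within sequencing lane, and between 0.0333 and 0.117 with each library left out in turn (0.05 without alpha 2, 0.0667 without any 1 of the beta libraries, 0.117 without either delta library). For Sstr2 the exact permutation p with fold enrichment was 0.0476.

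In the permutation within replicate number, the replicate block, the exact p of Sstr4 was 0.0556, the smallest that its 36 assignments allow. It changed no other call. Correlations of deviations between libraries of the same number ran from -0.0519 to 0.146. In a group of 2 libraries the deviations mirror each other, so these values are not independent and cannot decide on a pairing. The numbers were not taken to pair the samples.

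The 154 distinct peaks became 51 with strict peaks, 62 with 50000 peaks per list, 91 with a flank of 10 kb and 293 with 50 kb, and 104 to 142 with a library left out. The 88 merged regions became 18, 26, 50 and 188 in the same order, and 53 (without beta 1) to 87 with a library left out. With strict peaks the selective regions numbered 5 for alpha over beta, 3 for delta over alpha, 1 for beta over delta and 2 for delta over beta, and with 50000 peaks per list 3, 4, 2 and 3. A peak in every replicate gave 0 for beta over alpha and 1 for beta over delta. With a library left out the range was 0 to 3 for alpha over beta, 0 to 4 for beta over alpha, 3 to 4 for alpha over delta, 1 to 3 for delta over alpha, 0 to 4 for beta over delta and 0 to 1 for delta over beta. Without alpha 2, alpha over beta was 0 and beta over alpha was 4, and without beta 3 beta over delta was 0. Shares of all recurrent regions were not computed under these alternatives, so the selective counts stand here without a background.

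The number of peaks and the sequencing depth of a library limit every absent call, and the lists do not give reads.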
